A study of Mus musculus with 6 samples.

Results

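The conjugation enzymes described here were the UDP-glucuronosyltransferases (Ugt), the sulfotransferases (Sult) and the glutathione S-transferases, cytosolic or mitochondrial (Gst) and microsomal (Mgst). They were chosen by gene symbol alone, pseudogenes excepted, and were read by 81 probes for 59 genes, out of 26762 probes with a gene symbol for 20284 genes and 55681 probes in all. The members were 14 Ugt, 20 Sult, 22 Gst and 3 Mgst genes. Of these, 57 genes (78 probes) were well above background, the scanner software's own flag, on at least 1 array. Sult1c1 and Sult6b2 were not well above background on any of the 6 arrays. A further 8 genes of the same families, among them Ugt1a1, the bilirubin-conjugating form, had no probe matched by transcript and were not analysed here.

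BHPF (fluorene-9-bisphenol) is a bisphenol introduced as a substitute for bisphenol A. Immature female CD-1 mice received BHPF at 50 mg per kg body weight per day by mouth for 3 days, or the peanut oil vehicle. The labels give their age as 24 days, which is the age at the end of dosing in the study's methods. A figure legend of the study instead has dosing for these arrays begin at 24 days. RNA from the liver, the ovary and the uterus was hybridized to single-colour Agilent arrays. Each of the 6 groups (liver, ovary and uterus, each control and BHPF) was 1 array of RNA pooled from 3 mice, so that no difference within a tissue has a replicate check or a test and the spread between animals is unknown. The 3 tissues allow 1 test of a change shared by all of them, a limma fit over the 6 arrays with tissue as a block. Its p-values rest on the spread between tissues, not between animals. The study took the 3 tissues from the mice of each group, so they may come from the same animals, while the fit treats them as independent. A shared change could then not be told apart from a difference between the 2 sets of mice. The fit called 0 of 57 members and 0 of 17566 genes (0.00% of all genes) at an adjusted p under 0.05. At an unadjusted p under 0.05 in the limma fit stood 555 genes higher and 311 lower. Among them were 3 members, Sult3a2, Sult5a1 and Sult2a7, all higher. Sult3a2 and Sult2a7 were well above background on the liver arrays alone. Their ovary and uterus signals entered the fit as they stood, and the part of background signal in their p-values was not tested. The lowest adjusted p of a member in the limma fit was 0.811. The 3 treated arrays are compared with the 3 control arrays to ask which transcripts moved with exposure in each tissue.

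Conjugating enzymes couple a water-soluble group to steroids, bile acids, drugs and reactive chemicals so that these can leave the body. Ugt enzymes of the endoplasmic reticulum transfer glucuronic acid from UDP-glucuronic acid, Sult enzymes of the cytosol transfer sulfate from the activated sulfate donor PAPS, and Gst enzymes attach glutathione. Phenols, the bisphenols among them, are classic substrates of glucuronidation and sulfation. The liver is the main site of all these reactions, and Sult1e1, the oestrogen sulfotransferase, is known for inactivating oestrogens.

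The levels are log2 processed signals minus the 75th percentile of the same array, so that 0 is the signal below which 75% of probes lay, and each probe is compared with itself across arrays. A log2 ratio is the level on one array minus that on another. A gene counted as changed at a 2-fold difference. Where a probe was not well above background on one array, the ratio is a lower bound, written as at least. The same probes spotted repeatedly on an array gave a spot-to-spot SD of 0.136 for a log2 ratio in liver, 0.132 in ovary and 0.138 in uterus, which covers spot error alone.

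Features of the arrays that touch all results come first. The deposited value table holds the uterus columns exchanged relative to the scanner files, with 100% of its rows matching the other uterus array within 0.001 on the log2 scale. The scanner files and their labels were used here, and the table as headed turns the sign of every difference between BHPF uterus and control uterus. Which of the 2 carries the right labels cannot be told from these files. Hepatocyte markers, the genes of plasma proteins and liver enzymes, were well above background for 17 of 19 genes on the control uterus array and for 19 of 19 on the BHPF uterus array, at least 2-fold higher for 17 of 19, with a log2 summed level of 2.79 and 5.86. In the order control and BHPF, their log2 summed level was 3.71 and 3.84 in ovary and 9.33 and 9.25 in liver. The 13 granulosa and oocyte markers were all well above background on the ovary arrays, as were the 11 uterine markers on the uterus arrays. In liver, 7 of 8 neutrophil markers were at least 2-fold lower on the BHPF array. In a pool, fewer cells of a type and less RNA per cell cannot be told apart.

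Of 4 members picked by their array values, Gsta1 and Gsta2 were higher on the BHPF liver array. Sult2a6 was among the members with the largest difference between the uterus arrays, and liver and uterus shared Sult1d1. The regions just upstream of these 4 members are shown as examples. Each is the 250 bases before the gene start in RefSeq (GRCm38.p6), written 5′ to 3′ along the gene, at chr9:78230419-78230668 (plus strand) for Gsta1, chr9:78347146-78347395 (minus strand) for Gsta2, chr7:14254871-14255120 (minus strand) for Sult2a6 and chr5:87569007-87569256 (minus strand) for Sult1d1. Capitals mark GTTAAT, the half-site bound by the liver factor HNF1.
Gsta1: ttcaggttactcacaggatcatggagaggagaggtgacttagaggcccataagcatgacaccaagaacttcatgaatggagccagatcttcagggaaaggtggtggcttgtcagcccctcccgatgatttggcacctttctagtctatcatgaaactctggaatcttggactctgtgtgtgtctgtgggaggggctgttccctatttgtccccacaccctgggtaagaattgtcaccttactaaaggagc
Gsta2: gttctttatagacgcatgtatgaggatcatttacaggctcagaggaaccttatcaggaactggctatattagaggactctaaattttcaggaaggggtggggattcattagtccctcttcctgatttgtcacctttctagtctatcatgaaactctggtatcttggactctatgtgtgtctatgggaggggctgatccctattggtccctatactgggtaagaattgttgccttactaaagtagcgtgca
Sult2a6: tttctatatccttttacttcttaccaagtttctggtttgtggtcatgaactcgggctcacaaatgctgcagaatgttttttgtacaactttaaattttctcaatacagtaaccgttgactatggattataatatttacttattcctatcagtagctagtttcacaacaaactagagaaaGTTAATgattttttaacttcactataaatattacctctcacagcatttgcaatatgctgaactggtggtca
Sult1d1: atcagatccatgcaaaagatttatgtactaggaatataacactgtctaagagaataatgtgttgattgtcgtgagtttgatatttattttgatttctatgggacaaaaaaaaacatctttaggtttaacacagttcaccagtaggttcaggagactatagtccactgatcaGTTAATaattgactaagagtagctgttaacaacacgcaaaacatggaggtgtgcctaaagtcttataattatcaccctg

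The Gsta1 and Gsta2 windows were identical at 190 positions, or 81.2% of those aligned, with 32 gap positions. GTTAAT, searched on both strands of the window from 250 bases before to 50 bases after the gene start, lay in 11 of the 51 member genes with a window (21.6%) and in 2228 of 27025 genes of the whole RefSeq table (8.24%). The share was 5 of 14 among the members most restricted to liver and 6 of 35 among the others well above background. The core of the antioxidant response element (TGACNNNGC) lay in 4 of 51 members (7.84%) against 14.0% of all genes, and a TATA element (TATAAA) in 13 of 51 (25.5%) against 15.7%. A match is a string of letters in a window, not a bound site.

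The families were liver enzymes first of all. On the control arrays, 45 of 56 members that could be compared were at least 2-fold higher in liver than in ovary, against 21.6% of all genes, and 5 were lower, against 22.7%. Against the uterus, 47 of 57 members were higher in liver (20.0% of all genes) and 3 were lower (22.6%). The median difference was 3.60 on the log2 scale against ovary and 2.99 against uterus. All 14 Ugt genes were higher in liver than in both other tissues, as were 15 of 18 Sult genes, whereas 15 of 21 Gst genes exceeded the ovary and 16 of 22 the uterus. The BHPF arrays gave the same picture, with 45 of 56 members higher in liver than in ovary (22.8% of all genes) and 48 of 56 higher than in uterus (21.4%).

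**Figure D1:**
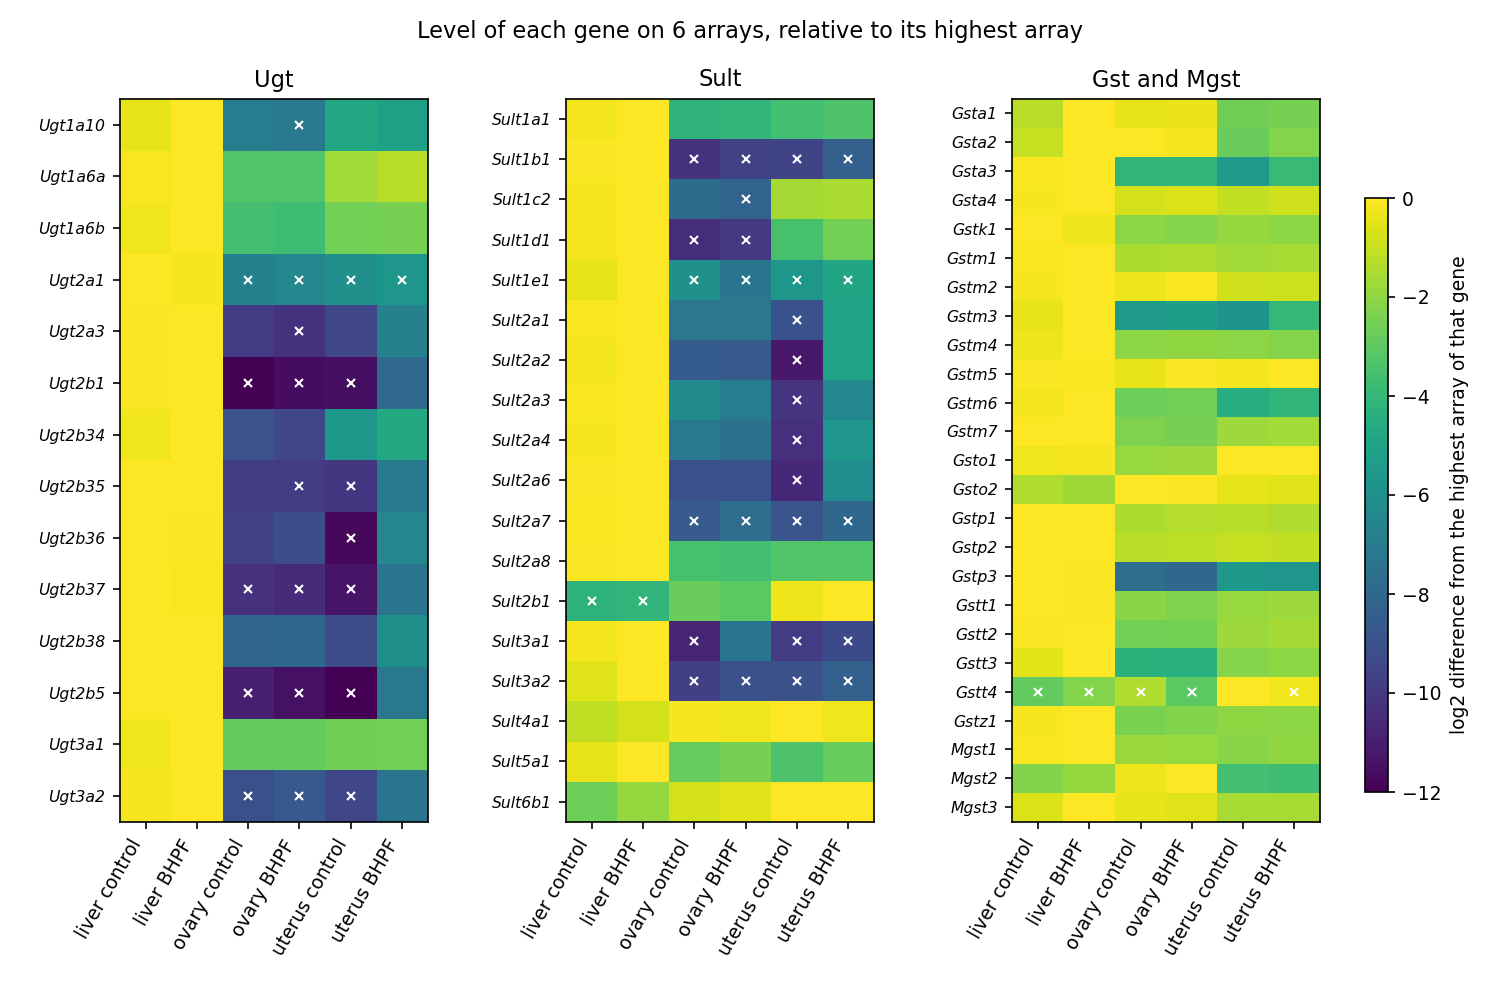
Level of 57 member genes on the 6 arrays, as the log2 difference from the array where that gene was highest (colour scale), with genes in rows by family. A white cross marks a gene with no probe well above background on that array. The liver columns are brightest for all Ugt rows, the dark Ugt2b and Sult2a cells of the control uterus are lighter on the BHPF uterus array, and Gsta1, Gsta2 and Mgst2 are brighter in control ovary than in control liver.

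The Ugt2 genes, which conjugate steroids, bile acids and many drugs, were far dimmer outside liver. Ugt2b5 stood at 4.16 in control liver and at 4.20 in BHPF liver, and was below the background flag in both ovary samples and in control uterus. It was at least 1437-fold higher in control liver than in control ovary and at least 998-fold higher than in control uterus. Ugt2b1, another steroid-conjugating form, stood at 3.71 and 3.76 on the liver arrays and was at least 1049-fold higher in control liver than in control ovary. Ugt2b36 read 4.03 and 3.95 in liver, -5.65 and -5.13 in ovary, and was not well above background in control uterus. Ugt2b38 was measured on all 6 arrays, at 4.14 and 4.14 in liver, -3.88 and -3.82 in ovary and -5.09 and -1.87 in uterus, in the order control and BHPF. Ugt2a3, at 4.04 and 4.09 in liver, read -5.84 in control ovary and -5.34 in control uterus. The ovary and control uterus values of these genes, each from 1 array, lay far below both liver values.

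Ugt2b34 departed from the other Ugt2b genes in uterus, at 40.1-fold below control liver where those genes were at least 348-fold below. It read 4.04 and 4.31 in liver, -1.29 and -0.39 in uterus and -4.62 and -5.13 in ovary. The control uterus value was 10.1-fold above the control ovary value. Among the Ugt1 genes, which share their last exons so that probes may not separate them, Ugt1a6a read 0.49 and 0.61 in liver, -1.07 and -0.70 in uterus and -2.66 and -2.66 in ovary. The Ugt1a6 forms are known as phenol-conjugating enzymes. Ugt1a6b was 4.94-fold higher in control liver than in control uterus and 9.99-fold higher than in control ovary, as the mean of 2 probes. Ugt1a10 was 20.9-fold higher in control liver than in control uterus and read -5.51 in control ovary on its brighter probe, against 1.19 in control liver. The Ugt3 genes, which use other sugars as donors, were split, since Ugt3a1 read between -0.35 and 0.01 on the ovary and uterus arrays and 2.31 and 2.55 in liver, while Ugt3a2 was not well above background in either ovary or in control uterus.

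Most Sult genes followed the same order. Sult1a1, the phenol sulfotransferase, was measured everywhere, with the probe that gave a value on all 6 arrays at 4.77 and 4.85 in liver, 0.85 and 1.01 in ovary and 1.49 and 1.64 in uterus. As the mean of 2 probes it was 16.0-fold higher in control liver than in control ovary and 10.3-fold higher than in control uterus. Sult1e1 read -1.04 in control liver and -0.58 in BHPF liver. It was not well above background on any ovary or uterus array, and was at least 39.1-fold higher in control liver than in control ovary and at least 27.1-fold higher than in control uterus.

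The Sult2a genes, the hydroxysteroid and bile acid sulfotransferases, were mostly high in liver, low in ovary and below background in control uterus. Sult2a1 stood at 3.54 and 3.65 in liver and at -3.61 and -3.58 in ovary. Sult2a2 stood at 3.27 and 3.47 in liver and at -5.05 and -5.08 in ovary. Sult2a8 alone among them was measured on all 6 arrays, at 3.97 and 4.03 in liver, 0.56 and 0.46 in ovary and 0.76 and 0.78 in uterus. Sult5a1 read 2.32 and 2.71 in liver, -0.12 and 0.26 in ovary and -0.66 and -0.10 in uterus, with the BHPF value the higher in each tissue. Sult3a1 and Sult3a2, sulfotransferases of the liver, were at least 330-fold and at least 116-fold higher in control liver than in control ovary.

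A smaller set of members was highest outside liver or shared between uterus and liver. Sult2b1, the cholesterol sulfotransferase, read -1.52 and -1.20 in uterus and -3.96 and -4.22 in ovary and was not well above background in liver. It was at least 15.2-fold higher in control uterus than in control liver. Sult1c2 read 0.18 and 0.28 in uterus and 1.67 and 1.81 in liver, whereas it read -5.93 in control ovary, 68.9-fold below control uterus, and was not well above background in BHPF ovary. Sult1d1, known for sulfating catecholamines and eicosanoids, was at least 47.2-fold higher in control uterus than in control ovary, where it was not well above background. Sult6b1 was 6.25-fold lower in control liver than in control uterus and 3.65-fold lower than in control ovary, and Sult4a1, known from brain, 2.20-fold and 1.99-fold lower.

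Gst genes were broadly shared. Gstp1, the pi-class form, averaged 4.66 and 4.69 over 2 probes in liver, 3.23 and 3.35 in ovary and 3.39 and 3.28 in uterus, and Gstp2, nearly identical to it, ran in parallel, so that the probes may share targets. Gstm2 and Gstm5, of the mu class, and Gsta4, an alpha-class enzyme for lipid aldehydes, differed by less than 2-fold between control liver and both other tissues. Mgst1, the main microsomal form, was 3.19-fold higher in control liver than in control ovary and read 2.44 and 2.57 in uterus, the mean of 2 probes. The probes of Gstm4 and Gstm6 did not agree on the size, at log2 differences of 0.86 and 2.70 for Gstm4 between control liver and control ovary and of 3.14 to 4.97 for Gstm6 between control liver and control uterus. Gsto1, the omega-class form, was similar in uterus and liver, at 4.21 and 4.24 in uterus and 3.97 and 4.06 in liver, and lower in ovary at 2.37 and 2.46. Gstp3 was the pi-class exception, 206-fold higher in control liver than in control ovary and 49.3-fold higher than in control uterus. Gstt4, of the theta class, was well above background on the control uterus array alone, at -4.77.

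Among the members brightest in ovary on the control arrays were Gsta1, Gsta2, Gsto2 and Mgst2. With BHPF, Gsta1 and Gsta2 read higher in liver than in ovary. Gsta1, an alpha-class enzyme that detoxifies lipid peroxidation products, read -0.08 and -0.04 in ovary, -0.97 and 0.29 in liver and -2.32 and -2.15 in uterus. Gsta2 read 0.62 and 0.47 in ovary, -0.45 and 0.60 in liver and -2.11 and -1.62 in uterus. Mgst2, a microsomal enzyme that can also make leukotriene C4, read -0.09 and 0.22 in ovary, -2.04 and -1.69 in liver and -3.35 and -3.49 in uterus. Gsto2 read -2.14 and -2.20 in ovary, -3.56 and -3.84 in liver and -2.58 and -2.73 in uterus. Its log2 ratio of control liver over control ovary was -1.41. On the control arrays Gsta2 was 2.09-fold and Mgst2 3.88-fold higher in ovary than in liver, and Gsta1 was 1.85-fold higher. Between control ovary and control uterus, 11 of 47 members were at least 2-fold higher in ovary (11.0% of all genes) and 11 were at least 2-fold lower (13.6%). On the BHPF arrays the counts were 4 higher (10.5% of all genes) and 23 lower (15.3%) of 51. Of the 23, 12 were Ugt genes, 7 of them called by a bound. These 7, Ugt1a10, Ugt2a3, Ugt2b1, Ugt2b35, Ugt2b37, Ugt2b5 and Ugt3a2, passed the background filter for this pair through the BHPF uterus array alone. The hepatocyte markers given above were higher on that array, and their part in the count was not tested.

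Many genes of these families stood in runs of neighbouring genes, though not all members did. In the order of RefSeq gene starts, 13 members stood in 1 run from Ugt2b34 to Sult1e1, of which 12 had a probe and 9 were at least 64-fold higher in control liver than in both other control arrays, the signals of dim probes being taken as they stood. The Sult2a run held 8 genes, 7 with a probe and 6 at that threshold. The Gstm run held 7 genes, all with a probe, and none reached it. In all, 18 of 57 members (31.6%) were restricted to liver by this measure, against 1.72% of all genes, 9 Ugt and 9 Sult genes and no Gst or Mgst gene.

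In liver, BHPF was accompanied by higher signals for the alpha-class pair Gsta1 and Gsta2. Gsta1 went from -0.97 to 0.29, a log2 ratio of 1.26 or 2.40-fold. Gsta2 went from -0.45 to 0.60, a log2 ratio of 1.05 or 2.06-fold. With the 50th percentile of the array as the reference these ratios were 0.95 and 0.73, under the 2-fold line. Each gene had 1 probe, and the 2 transcripts are close relatives, so the probes may read each other's RNA. The other alpha-class genes moved less, with log2 ratios of 0.14 for Gsta3, the mean of 2 probes, and 0.17 for Gsta4.

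These 2 were the only members of 55 compared in liver to reach 2-fold in the higher direction, against 3.20% of all genes, and 0 of 55 were lower, against 1.54%. A count of 2 in 55 is 3.64%, near the background. The median log2 ratio of the members was 0.12 and that of all genes 0.00, and 44 members lay above 0 and 11 below. With the 50th percentile as the reference, all genes shifted to a median of -0.30 and only 12 members lay above 0, while 42 of 55 lay above the median of all genes. All 17 Sult genes compared in liver had ratios between 0.07 and 0.77 and lay above the median of all genes, also with the 50th percentile, under which 5 lay above 0, but with normexp background correction 14 did. Most of these ratios were within 2 SDs of the spot error.

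**Figure D2:**
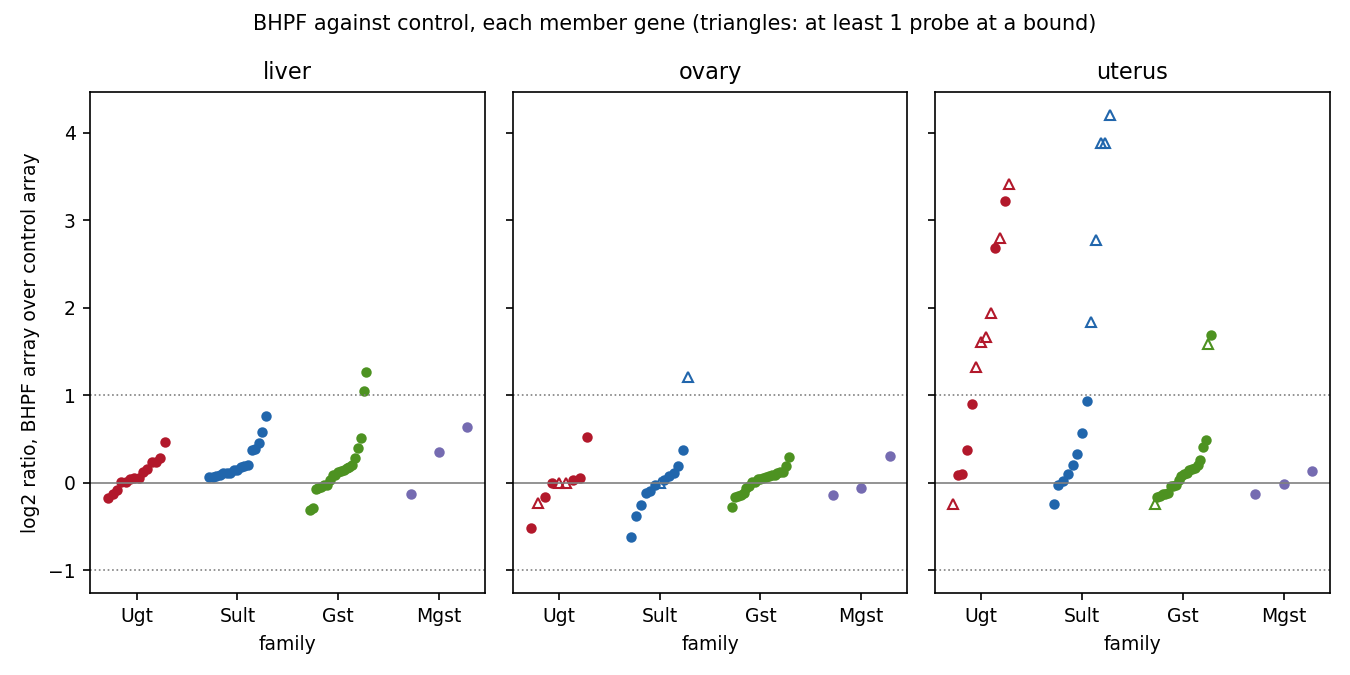
Log2 ratio (BHPF over control) of each member gene, by family (horizontal axis) and tissue (panels). Dots are genes measured on both arrays and triangles genes with at least 1 probe at a bound, and dotted lines mark 2-fold. Gsta1 and Gsta2 lie above the line in liver, Sult3a1 in ovary, and 8 Ugt, 5 Sult and 2 Gst genes in uterus, and no gene lies below the lower line.

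Next below the 2-fold line in liver came Sult6b1 at 0.77, a dim probe at -5.22 and -4.45, then Mgst3 at 0.63, Sult3a2 at 0.58 and Gstt3 at 0.51. Mgst3, a microsomal glutathione transferase and peroxidase, read 0.51 and 0.76 on its 2 probes. Sult1e1 had a log2 ratio of 0.46 and Ugt1a10 of 0.47. The lowest ratio was that of Gstk1, the mitochondrial kappa-class form, at -0.31. The Ugt2b genes kept close to their control values, with log2 ratios from -0.13 for Ugt2b37 to 0.28 for Ugt2b34. Among the 18 members restricted to liver, none reached 2-fold and the median was 0.08. None of the 19 hepatocyte markers reached 2-fold in liver, at a median of -0.03, while the neutrophil markers that were lower there had a list median of -2.50, and the part of either in the Gsta1 and Gsta2 ratios was not tested.

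In ovary the members hardly moved. Of 46 compared, 1 was at least 2-fold higher (0.474% of all genes) and 0 were lower (0.617%), with a median log2 ratio of 0.01 in the members and in all genes. The 1 gene was Sult3a1, at -5.12 on the BHPF array and not well above background on the control array, at least 2.32-fold higher. Its signal was near the detection limit of -5.74 on that array. The other ratios ran from -0.62 for Sult2a3, which went from -3.80 to -4.41, to 0.52 for Ugt2b36. Gst and Mgst genes stayed between -0.28 for Gstp3 and 0.30 for Mgst2. Gsta1, at 0.05, and Gsta2, at -0.15, showed nothing of their liver ratios in ovary, although the difference between tissues was not tested. On the same arrays 3 of 7 adipocyte markers were at least 2-fold higher, 4 of 6 neutrophil markers were at least 2-fold lower, and none of 18 hepatocyte markers reached 2-fold.

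In uterus, 15 of 51 members were at least 2-fold higher on the BHPF array, against 2.27% of all genes, and 0 were lower, against 0.823%. They were 8 of 13 Ugt genes, 5 of 13 Sult genes and 2 of 22 Gst genes. For 12 of the 15 the control value was not well above background on at least 1 probe, so that the size is a bound. The table as headed gives the same 15 genes as lower.

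Sult2a genes were prominent among them. Sult2a2, below background on the control array, read -1.60 on the BHPF array, at least 18.5-fold higher. Sult2a1 read -1.42, at least 14.8-fold higher, and Sult2a6 was at least 14.8-fold higher over 2 of its 3 probes. Sult2a4 and Sult2a3 were at least 6.83-fold and at least 3.58-fold higher, at -3.03 and -3.96 on the BHPF array. Sult2a8, already measurable in control uterus, had a log2 ratio of 0.02.

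Among the Ugt genes, Ugt2b38 went from -5.09 to -1.87, 9.35-fold, and Ugt2a3 from -5.34 to -2.66, 6.43-fold, both measured on both arrays. The others were bounded. Ugt2b36 was at least 10.6-fold higher, Ugt2b5 at least 6.97-fold, Ugt2b37 at least 3.83-fold, Ugt2b1 at least 3.18-fold, Ugt3a2 at least 3.06-fold and Ugt2b35 at least 2.51-fold. Ugt2b34 went from -1.29 to -0.39, a log2 ratio of 0.90, just under the line. The Ugt1 genes did not follow, with log2 ratios of 0.37 for Ugt1a6a, 0.10 for Ugt1a6b and a bound of -0.25 for Ugt1a10.

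The 2 Gst genes were Gsta3 and Gstm3. Gsta3, an alpha-class enzyme known in mice for detoxifying aflatoxin, was measured on both arrays by 2 probes that gave log2 ratios of 1.65 and 1.72, 3.22-fold as their mean. Gstm3 rested on 1 of its 2 probes. One gave 0.14, while the other, below background on the control array and at -2.79 on the BHPF array, gave at least 3.02. The same 2 probes differed between liver and the other tissues, at 1.04 and 9.06 for control liver over control ovary, so they do not read one transcript alike. Sult1d1 went from -0.77 to 0.16 as the mean of 2 probes with log2 ratios of 0.63 and 1.23. The remaining Gst genes lay between -0.24 and 0.48, and Sult2b1 went from -1.52 to -1.20.

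**Figure D3:**
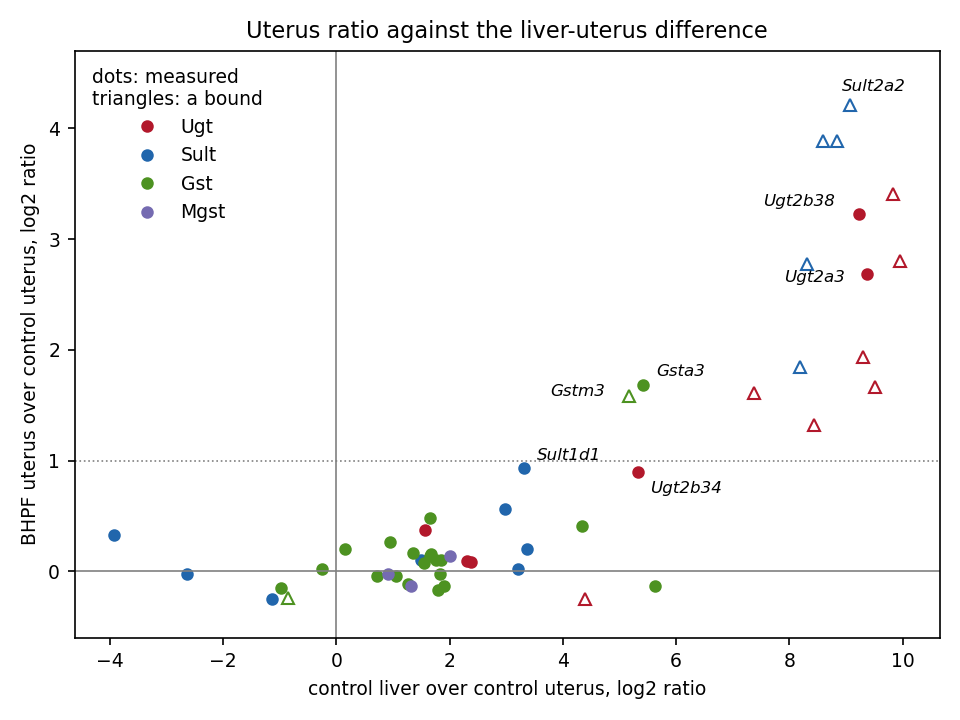
Log2 ratio of BHPF uterus over control uterus (vertical axis) against log2 ratio of control liver over control uterus (horizontal axis) for each member gene compared in both, coloured by family. Dots were measured on both uterus arrays, triangles have a bound in the uterus ratio, and bounded liver ratios are plotted at their bound. Both axes use the control uterus array. All 13 genes beyond 7 on the horizontal axis lie above the dotted 2-fold line, and those near or below 2 lie close to 0.

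Of the 15 genes higher in uterus, 13 were restricted to liver. All 13 liver-restricted members compared in uterus passed the 2-fold line upward, the median of their log2 ratios and bounds being 2.77, while 2 of the other 38 were, Gsta3 and Gstm3, with a median of 0.10. The axis and the ratio share the control uterus array, and the 13 passed the background filter only through the BHPF array or through a dim control value, so these counts are a description. Of the remaining 5 liver-restricted members, Sult1b1, Sult2a7, Sult3a1, Sult3a2 and Ugt2a1, none was well above background on either uterus array.

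The uterus difference was also expressed as a share of the liver signal, the processed signal on the BHPF uterus array minus that on the control uterus array over that on the control liver array, after scaling. Over the 49 members with a value it lay between -34.4% for Sult4a1 and 13.5% for Gstm5, with a median of 1.16% and 36 above 0. Sult4a1 read only -4.24 in control liver, and a dim liver signal as divisor makes a share large. For the 15 members that were at least 2-fold higher it lay between 0.401% and 5.18%, positive by their selection, and several members under the 2-fold line had larger shares, such as Sult1d1 at 8.64%. For the 19 hepatocyte markers it lay between 0.556% and 15.6%. With the uterus labels exchanged each share has the opposite sign. Hepatocyte markers were higher on the same array as the Ugt and Sult genes, and their part in the result was not tested. Also on the BHPF uterus array, 3 of 6 adipocyte markers were at least 2-fold lower, Adipoq 9.91-fold, as were 3 of 7 neutrophil markers, and none of either list was at least 2-fold higher, and their part was not tested either.

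**Figure D4:**
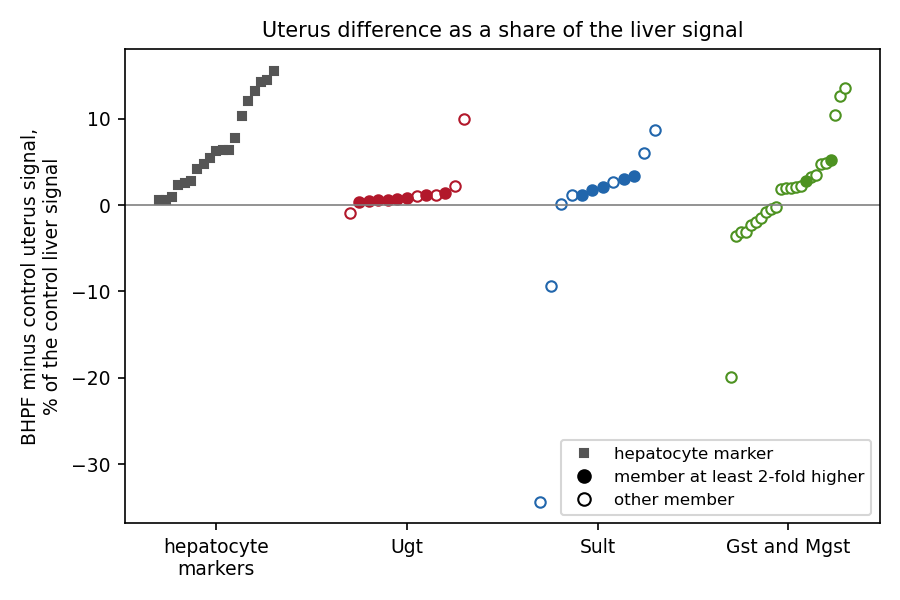
Signal on the BHPF uterus array minus that on the control uterus array, as a percentage of the control liver signal (vertical axis), for 19 hepatocyte markers (squares) and for the 49 members with a value, by family. Filled circles are members at least 2-fold higher on the BHPF uterus array, which are positive by selection, and open circles the other members. Members spread from -34.4% to 13.5% and hepatocyte markers from 0.556% to 15.6%.

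Genes that supply the conjugation reactions moved little. Of 18 genes for cofactor supply and product handling compared in each tissue, 1 was at least 2-fold lower in liver, and in ovary and uterus none reached 2-fold. The 1 gene was Ggt1, which breaks down extracellular glutathione, at -3.57 in control liver and not well above background with BHPF, at least 2.53-fold lower. Ugdh, which makes UDP-glucuronic acid, went from 2.41 to 2.78 in liver, and Papss2, a PAPS synthase, from 3.44 to 3.48. Gclc, the catalytic subunit of the enzyme that starts glutathione synthesis, went from 3.00 to 3.18.

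Among 10 other conjugating transferases, Nnmt, the nicotinamide methyltransferase, went from 2.89 to 0.98 in liver, 3.76-fold lower. In uterus the acyl-CoA transferases Baat, which joins bile acids to amino acids, and Glyat, the glycine acyltransferase, were at least 2.53-fold and 2.28-fold higher, and in ovary none of 9 compared reached 2-fold. Of 12 regulators, none reached 2-fold in liver or in ovary. In uterus Hnf4a, a hepatocyte transcription factor, was at least 7.46-fold higher and Nr1i3, the xenobiotic receptor CAR, 2.62-fold higher. The receptor genes Ahr and Nr1i2 read 1.96 and 3.07 in control liver and 2.19 and 3.05 with BHPF.

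Of 12 target genes of xenobiotic receptors, Cyp2c55 went from -1.43 to -0.09 in liver, 2.54-fold higher, and no other reached 2-fold there. Cyp1a1, the standard dioxin-receptor target, went from -1.24 to -2.17. In uterus Cyp3a11, Cyp1a2 and Cyp2b10, cytochrome P450 enzymes of liver, were 16.7-fold, at least 10.7-fold and at least 5.49-fold higher. In ovary none of 10 compared reached 2-fold. The hepatocyte markers given above were higher on the same array, and their part in these differences was not tested.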

How the data were processed

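Total RNA pools of 3 mice, 1 per tissue and treatment, were labelled with Cy3 and hybridized to 1-colour Agilent mouse arrays. The deposited scanner files hold the background-subtracted intensity of each spot (processed signal) from Feature Extraction, version 9.1 per the labels and 11.5.1.1 per the file headers. The deposited value table holds log2 values that the authors shifted by a constant per array, a percentile shift in the study's methods. Its column medians were -1.25, -1.66, -1.22, -1.17, -1.64 and -1.23. The percentile is not given in the sources used here, but each constant lay near the log2 75th percentile of the scanner array it matched. The value table served as an alternative only. Here, spots of a probe were averaged after removal of control and outlier-flagged spots (2 member probes had no value on the BHPF liver array), log2 intensity was centred on the 75th percentile of each array, probes well above background on neither of the arrays compared were left out, and genes were taken as the mean of their probes. Between 61.4% and 74.6% of the probes on an array were well above background, and no spot was saturated. The bound for a dim probe used the higher of its own level and the lowest level well above background on that array.

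Transcript accessions were matched to gene symbols in the RefSeq table of GRCm38.p6, which named 48.1% of probes. The arrays were designed on another build, so no probe coordinates are given. All 6 arrays shared 1 slide and 1 scan, and the BHPF arrays followed the controls in slide position, so position and treatment cannot be told apart. With 1 array per group no test was possible within a tissue. A change common to the tissues was tested with limma over the 6 arrays, with tissue as a block and 2 residual degrees of freedom, for genes with a probe well above background on at least 1 array, dim signals taken as they stood. This fit was chosen after seeing the data. Precision is limited by the array number. Members, gene lists and thresholds were chosen with earlier results of these data known. Genes were named by a fixed rule: the brightest 3 of each family and tissue, those changed 2-fold (up to 10 a direction), the largest tissue differences, Sult1e1, Sult1a1, Sult2b1, the Sult2a and Ugt2b genes and Ugt1a1, genes whose probes differed by over 1 on the log2 scale, and listed pathway genes changed 2-fold. Others, such as Ugdh and Ahr, were added after their values were seen. Ratios and calls were tested on simulated data. Alternatives covered background correction (normexp on the median spot signal, offset 50), scaling, filters, bounds, probes and thresholds. Python 3.11.15, numpy 2.4.6, pandas 2.3.3, R 4.3.3 and limma 3.58.1 were used.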

Additional observations from a re-analysis of the deposited data

Results flagged for a closer look

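The following members moved in opposite directions in 2 tissues, each by more than 2 SDs of the spot error, and with 1 array per group the difference was not tested. Sult2a3 had a log2 ratio of -0.62 in ovary and at least 1.84 in uterus, a difference of at least 2.46. Sult2a4 had -0.38 in ovary and at least 2.77 in uterus, a difference of at least 3.15. Ugt2b34 had 0.28 in liver and -0.51 in ovary, a difference of -0.79, and 0.90 in uterus, a difference of 1.41 from ovary. With normexp or with other scalings Ugt2b34 in liver ranged from -0.04 to 0.28. In ovary Sult2a3, Sult2a4 and Ugt2b34 read between -5.13 and -3.80, dim levels where the spot error may exceed the SD used. In uterus Sult2a3 and Sult2a4 were well above background on the BHPF array alone. The share of all genes meeting the same rule was not computed.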

How the results depend on the processing

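No paired analysis was possible because each group holds 1 array, other than the limma fit with tissue as a block, chosen after seeing the data, which tests only a change shared by the 3 tissues. It called 0 members at an adjusted p under 0.05 as labelled, with the uterus labels exchanged and with the 50th percentile as reference. In the same order, 3, 0 and 1 of 57 members had an unadjusted limma p under 0.05. Over all 17566 genes these counts were 555, 315 and 251 higher and 311, 256 and 570 lower. The 1 member with the 50th percentile was Sult3a2, well above background in liver alone. With the 75th percentile, the lowest level well above background was higher on the BHPF array in each tissue. In the order control and BHPF, it was -5.62 and -4.91 in liver, -6.33 and -5.74 in ovary and -5.80 and -5.07 in uterus. No replicate could be left out. Of 120 recomputed counts and medians within tissues or between them, 97 stayed within 1.5 times the count or within the spot SD of the median, and 23 moved. Of 248 recomputed ratios of single genes, 167 stayed within the spot SD, 66 moved by more and 15 reversed. In liver, the count of changed members was 0 with the 50th percentile as reference, where the median was -0.20, 4 at a 1.5-fold threshold and 0 at a 4-fold one. In ovary, it was 0 with probes well above background on both arrays, without the liver-restricted members and at 4-fold, 3 with no filter on dim probes (1 higher and 2 lower) and 2 at 1.5-fold. In uterus, it was 3 with probes well above background on both arrays, 2 without the liver-restricted members and 8 at 4-fold. The uterus median was 0.31 with no filter and -0.16 in the authors' table as headed. Members higher in control liver than in control ovary numbered 27 without the liver-restricted ones. Those higher than in control uterus numbered 29 without them, 30 with probes well above background on both arrays and 31 at 4-fold. Those higher in control ovary than in control uterus numbered 7 with normexp, 7 with probes well above background on both arrays, 6 without the liver-restricted members, 4 at 4-fold and 5 in the table as headed.

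The table as headed reversed the 15 genes called in uterus, with log2 ratios of -1.68 for Gsta3, -1.78 for Gstm3, -3.89 for Sult2a1, -6.12 for Sult2a2, -3.74 for Sult2a3, -4.64 for Sult2a4, -5.81 for Sult2a6, -2.68 for Ugt2a3, -3.62 for Ugt2b1, -2.96 for Ugt2b35, -5.34 for Ugt2b36, -3.93 for Ugt2b37, -3.22 for Ugt2b38, -4.93 for Ugt2b5 and -3.38 for Ugt3a2. With the uterus columns exchanged it gave 15 higher and 0 lower. Gstm3 was at 0.14 when its brighter probe alone was used. The table holds no value for many liver-only probes in ovary and uterus, so that 45 and 49 members could be compared with liver there.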
